A study of Homo sapiens with 282 samples.

Results

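The 10 genes described here encode actins (ACTB, ACTG1, ACTA2), chains of myosin II (MYH9, MYH10, MYL6, MYL9) and proteins that link or anchor actin filaments (ACTN1, ACTN4, VCL). They were picked by symbol in the annotation of the array, and each gene was read from its brightest probe set on average, which gave 10 of 18239 genes. The question was how their transcript levels moved under each compound, dose and time, with blebbistatin, an inhibitor of the myosin II motor, first.

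The cells were OCI-Ly3, a human line established from diffuse large B cell lymphoma, and their RNA was read on 282 Affymetrix HT HG-U219 arrays, 94 for each of 6, 12 and 24 h of treatment. Every value is a log2 intensity. Blebbistatin was given at 100 and 10 uM, aclacinomycin A at 0.105 and 0.036, camptothecin at 0.31 and 0.01, cycloheximide at 5 and 0.264, doxorubicin hydrochloride at 0.101 and 0.03, etoposide at 0.812 and 0.811, and geldanamycin at 0.032 and 0.001 uM. H-7, Dihydrochloride (H-7) was given at 20.2 and 12.4 uM, methotrexate at 100, mitomycin C at 2.56 and 0.553, monastrol at 100 and 50, rapamycin at 22 and 13.8, trichostatin A at 0.143 and 0.114, and vincristine at 0.01 and 0.005 uM. Each compound and concentration had 3 arrays per time, except methotrexate with 6, and was set against 8 arrays of the vehicle, DMSO (1%), of the same time. A further 2 arrays per time, labelled Media, had neither compound nor DMSO. The cells are 1 cell line, and the labels do not say that replicates were separate cultures, so p-values measure the spread between these samples, which may be technical. All comparisons of a time share the same 8 DMSO arrays. The methotrexate arrays of a time carry each of the replicate numbers 1, 2 and 3 more than once, so their n = 6 may be too high.

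Actin filaments assemble from actin subunits, and bipolar filaments of myosin II pull on them. Each myosin II molecule has a pair of heavy chains with the motor, and essential and regulatory light chains that stabilise the lever arm and switch the motor on by phosphorylation. Serum response factor (SRF), with its actin-sensing partners MRTFA and MRTFB, drives many cytoskeletal genes through a DNA element called the CArG box, while its partners of the ELK family serve immediate early genes such as FOS and EGR1. In B cells this machinery serves motility, capping of the antigen receptor and division. The DNA element is shown here because it is the named link between SRF and these genes. RefSeq promoter windows on GRCh38.p14, from 250 bases before to 50 after a start site, were at hand for 8 of the 10 genes, in 13 windows. No window of ACTB or MYL9 was used here.

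A CArG box, searched on both strands, lay in 2 of the 13 windows, those of ACTG1 and of 1 of the 4 start sites of ACTN1. In all RefSeq promoter windows the share was 1.29% of 35116. With 1 mismatch allowed inside the box, 5 of the 13 windows held a match, including 2 matches before the downstream start of ACTA2 and 1 before each of 2 start sites of ACTN4. The share of all windows at this looser setting was 8.13%. The 150 bases at -200 to -51 are printed below for 3 genes, 5′ to 3′ on the gene's strand, with the matches in capitals. The ACTG1 stretch is chr17:81512850-81512999 on the minus strand, with the box starting at position -94 from the start site. The ACTN1 stretch is chr14:68977617-68977766, minus strand, with the box at -171. The ACTA2 stretch is chr10:88952824-88952973, minus strand, with 1-mismatch matches at -121 and -71.
ACTG1: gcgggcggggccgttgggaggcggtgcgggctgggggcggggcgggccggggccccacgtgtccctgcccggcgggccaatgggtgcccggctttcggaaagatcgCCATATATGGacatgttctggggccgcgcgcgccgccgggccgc
ACTN1: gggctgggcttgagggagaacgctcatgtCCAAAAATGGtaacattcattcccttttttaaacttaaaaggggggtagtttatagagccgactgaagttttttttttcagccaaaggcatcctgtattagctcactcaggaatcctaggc
ACTA2: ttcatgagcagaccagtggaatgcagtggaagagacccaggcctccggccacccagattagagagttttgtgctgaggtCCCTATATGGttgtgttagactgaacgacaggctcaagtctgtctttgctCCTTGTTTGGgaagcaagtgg
A match describes these letters only and shows no binding.

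In the 8 DMSO arrays at 6 h, the actins averaged 13.41 ± 0.04 (ACTB), 13.86 ± 0.05 (ACTG1) and 10.52 ± 0.08 (ACTA2, smooth muscle alpha actin) on the log2 scale (SD, n = 8). The heavy chains averaged 12.18 ± 0.08 (MYH9) and 11.61 ± 0.09 (MYH10), and the light chains 12.81 ± 0.07 (MYL6, essential) and 4.72 ± 0.26 (MYL9, regulatory). Of other myosin II genes, not among those described here, MYL12A and MYL12B averaged 13.10 and 11.04. The crosslinkers ACTN1 and ACTN4 averaged 10.70 ± 0.12 and 11.63 ± 0.04, and VCL, vinculin, 10.76 ± 0.09. The median of all genes was 6.52, and MYL9 lay below it, so changes of MYL9 may be understated. The median of all genes is given for orientation, since the level of a probe set also depends on its probes. ACTB and ACTG1 are near-identical genes read by probe sets that may bind both transcripts, and their values lie near the highest of all arrays, 14.66, so their changes are uncertain and may be compressed.

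The label as a B cell line was set against B cell markers. In DMSO at 6 h, PAX5 averaged 7.23, while MS4A1, CD79A, CD79B, CD22 and BLNK averaged 4.64, 5.02, 4.94, 4.73 and 4.12, below the median of all genes. Markers of smooth muscle and fibroblasts, where ACTA2 and MYL9 are classic genes, had a median of 4.80 over 9 genes. They ran from 3.39 (LUM) to 6.56 (COL3A1), with MYH11 at 4.48, CNN1 at 5.58 and DES at 6.13. T cell markers had a median of 4.99 and reached 6.4 (CD2), and the medians of epithelial, endothelial and myeloid markers were 4.03, 4.25 and 3.71. The leukocyte actin-binding genes LCP1, CORO1A, LSP1 and HCLS1 averaged 13.12, 10.76, 11.04 and 10.48. WAS, from the same list of actin assembly genes, averaged 4.93, below the median of all genes.

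Arrays of the later times differed in quality. Low-signal here means an upper quartile of log2 values under 8. None of the 6 h arrays was low-signal, but 31 of 94 were at 12 h and 17 of 94 at 24 h, including all 6 blebbistatin arrays and 4 of 8 DMSO arrays at 12 h. The median standard error of a comparison over all genes was 0.0988 at 6 h, and it was larger at 12 h (0.299) and 24 h (0.276). At 12 and 24 h the text says where low-signal arrays were left out, and all other values come from all arrays. Differences are given on the log2 scale ± SE from limma. A call means p under 0.05 after Benjamini-Hochberg adjustment over all 18239 genes. In such bulk samples, fewer cells of a kind and less RNA per cell cannot be told apart.

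Under blebbistatin at 6 h, the transcripts of its own target and of the actins overlapped the DMSO arrays. None of the 10 genes was called at 100 or 10 uM, where 2.59% and 2.63% of all genes were called. At 100 uM the differences ran from -0.05 (ACTA2) to 0.13 (VCL), and at 10 uM from -0.08 (ACTN4) to 0.20 (ACTN1), with 2 genes at an unadjusted p under 0.05 at each concentration. In all 20 of these gene and dose pairs the blebbistatin arrays overlapped the DMSO arrays. When all probe sets of a gene were averaged, 4 genes were called at 10 uM, ACTA2 higher (0.26 ± 0.0655) and ACTN4 (-0.23), ACTN1 (-0.18) and MYL6 (-0.12) lower. The last 2 of these had the opposite sign in their main probe set. How many of all genes were called with averaged probe sets is not given here. The ACTA2 average includes 2 dim probe sets, with means of 4.26 and 3.72 beside 10.58 for the main one.

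MYH9, the heavy chain of myosin IIA, had 12.31, 12.25 and 12.26 at 100 uM, 12.21, 12.30 and 12.25 at 10 uM, and 12.04 to 12.26 in DMSO with a median of 12.21. The difference at 100 uM was 0.09 ± 0.0447 (adjusted p = 0.305), with a 95% interval from 0.00 to 0.18. MYH10, the heavy chain of myosin IIB, had 11.68, 11.67 and 11.75 at 100 uM, 11.66, 11.74 and 11.71 at 10 uM, and 11.51 to 11.77 in DMSO with a median of 11.57. Its differences were 0.09 ± 0.0477 at either concentration (adjusted p = 0.364 and 0.301). For both heavy chains, the treated arrays sat in the upper part of the DMSO range without leaving it as a group. The light chain MYL6 had 12.75, 12.80 and 12.79 at 100 uM, against 12.70 to 12.92 in DMSO, a difference of -0.03 ± 0.0339 (adjusted p = 0.802).

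Cytoplasmic gamma actin, ACTG1, had 13.94, 14.03 and 13.92 at 100 uM, 13.95, 13.89 and 13.86 at 10 uM, and 13.77 to 13.94 in DMSO. The difference at 100 uM, 0.11 ± 0.0451, did not pass (adjusted p = 0.231). Beta actin, ACTB, differed by -0.04 ± 0.0441 at 100 uM (adjusted p = 0.747). VCL, which ties actin filaments to adhesion sites, had 10.92, 10.85 and 10.87 at 100 uM, 10.82, 10.92 and 10.95 at 10 uM, and 10.65 to 10.92 in DMSO. Its differences of 0.13 ± 0.0684 and 0.14 ± 0.0684 did not pass (adjusted p = 0.397 and 0.272). At 100 uM the 95% intervals lay between -0.14 and 0.26, except for those of ACTN1 (-0.18 to 0.14) and MYL9 (-0.19 to 0.36). No gene was called between 100 and 10 uM at any time, where 0.186%, 0.115% and 0.00548% of all genes were called at 6, 12 and 24 h.

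**Figure D1:**
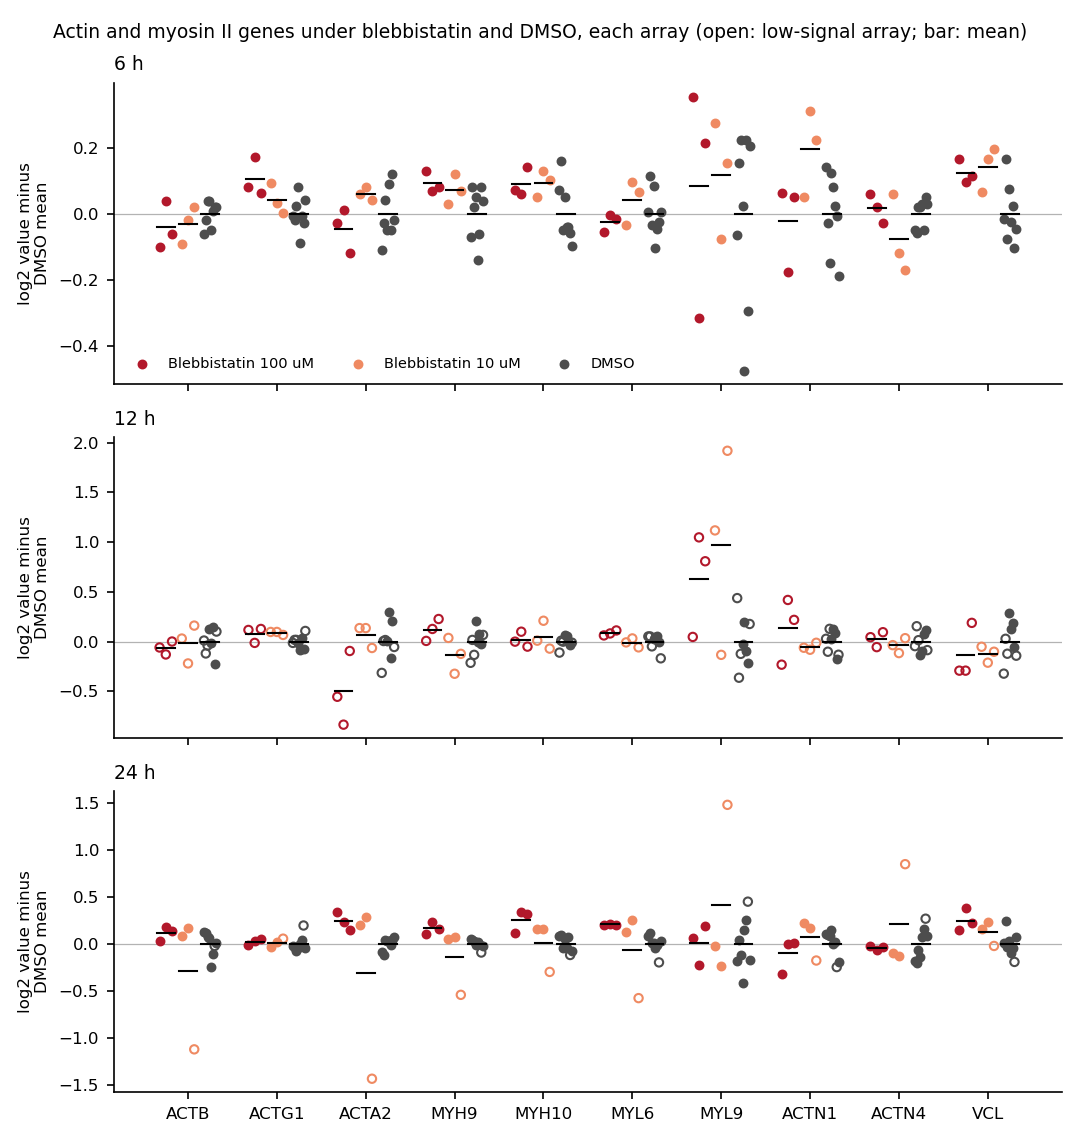
Log2 value of each array minus the DMSO mean of the same time (y axis, log2 units) for the 10 genes (x axis), under blebbistatin at 100 and 10 uM and in DMSO, at 6, 12 and 24 h from top to bottom. Bars are group means and open circles low-signal arrays. At 6 h every blebbistatin group overlaps DMSO. At 24 h the 3 arrays at 100 uM lie above all DMSO arrays for ACTA2, MYH9, MYH10 and MYL6. None of these was called in the fit of all arrays.

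At 24 h the fit of all arrays again called none of the 10 genes at either concentration, and 0.0493% and 0% of all genes. ACTA2 had 11.02, 10.92 and 10.83 at 100 uM, against 10.57 to 10.76 in DMSO. MYH9 had 12.44, 12.56 and 12.49, against 12.24 to 12.38, and MYH10 had 11.94, 12.17 and 12.15, against 11.71 to 11.92. MYL6 had 12.91, 12.92 and 12.91, against 12.51 to 12.82 in DMSO. For these 4 genes all 3 treated arrays lay above all 8 DMSO arrays. How many of all genes did so is not given here, so this separation may not be particular to them.

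Without low-signal arrays, which removed 1 DMSO array and 1 array at 10 uM from these groups, 5 of the 10 genes rose at 100 uM, where 14.2% of all genes were called and 5.67% were higher. The differences were 0.24 ± 0.0525 for ACTA2 (adjusted p = 0.000349), 0.15 ± 0.0404 for MYH9 (adjusted p = 0.00465), 0.24 ± 0.0547 for MYH10 (adjusted p = 0.000698), 0.18 ± 0.04 for MYL6 (adjusted p = 0.000637) and 0.22 ± 0.066 for VCL (adjusted p = 0.0135). VCL had 11.08, 11.31 and 11.15, which overlapped the 10.74 to 11.18 of DMSO. At 10 uM ACTA2 and MYL6 rose, by 0.25 ± 0.061 and 0.16 ± 0.0465 (adjusted p = 0.00786 and 0.0289), where 5.29% of all genes were called. Replicate 3 at 10 uM was the low-signal one, with ACTA2 at 9.25 against 10.89 and 10.97 in its replicates, and with it ACTA2 and MYL6 averaged -0.32 and -0.07 relative to DMSO.

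At 12 h all blebbistatin arrays were low-signal, with the bioB spike control at 12.16 to 13.51, and none of the 10 genes was called at 10 or 100 uM (0.395% and 3.57% of all genes). The smallest adjusted p at each concentration belonged to ACTA2 at 100 uM (9.91, 9.63 and 10.37, against 10.15 to 10.76 in DMSO, -0.49 ± 0.193, adjusted p = 0.132) and MYL9 at 10 uM (5.83, 4.58 and 6.63, against 4.35 to 5.15, 0.97 ± 0.299, adjusted p = 0.115). MYL9 at 100 uM differed by 0.63 ± 0.299 (adjusted p = 0.233). These groups overlapped DMSO, and the part of array quality in these differences was not tested.

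Other genes of the pathway were followed by lists, beside 2.59% of all genes called at 100 uM and 2.63% at 10 uM. The lists were chosen with earlier results of these data known, so counts within them are descriptive only. Of 8 immediate early genes measured, 4 rose at 6 h under 100 uM blebbistatin, namely EGR3 (0.67 ± 0.0964), FOS (0.62 ± 0.0734), FOSB (0.52 ± 0.133) and EGR4 (0.47 ± 0.118), with a list median of 0.28 beside 0.00 over all genes. None of the 8 was called at 10 uM. Of 22 SRF-linked cytoskeletal genes, CNN2, a calponin, rose by 0.29 ± 0.058 at 100 uM, and LIMA1, an actin crosslinker, rose by 0.22 ± 0.0425 at 100 uM and 0.15 ± 0.0425 at 10 uM. None of the 5 genes of the SRF axis itself (SRF, MRTFA, MRTFB, ELK1, ELK4), of 12 other myosin II genes and regulators, or of 16 genes of actin assembly was called at 6 h. At 24 h the fit of all arrays called 0 of these lists' genes.

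Across all compounds at 6 h, 54 of 270 gene and comparison pairs were called, 31 higher and 23 lower, or 20.0%, where 13.7% of all pairs of genes and comparisons were called. ACTA2 was called most often, higher in 10 of 27 comparisons and lower in 3, as many as or more than 99.42% of genes, while the median gene was called in 3. ACTB was called in 8 comparisons (2 higher, 6 lower), ACTN4 in 7 (4 and 3), MYH10 in 6 (5 and 1) and VCL in 6 (3 and 3). ACTN1 was lower in 5 and higher in 0, MYH9 was called in 4, MYL6 in 3, and ACTG1 and MYL9 in 1 each. Over the 29 group means at 6 h the SD was 0.42 for VCL, 0.26 for ACTA2, 0.24 for MYH10, 0.22 for ACTN1 and 0.17 for ACTN4, and 0.06 for MYL6 and ACTG1. When each replicate was left out in turn, 33 of the 54 calls held each time, and 27 held under every other setting too. The other probe sets of these genes, array controls for ACTB included, gave 177 further comparisons for the 54 pairs, of which 151 had the same sign, 76 were called the same way and 1, for ACTN1 under 20.2 uM H-7, was called the opposite way.

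**Figure D2:**
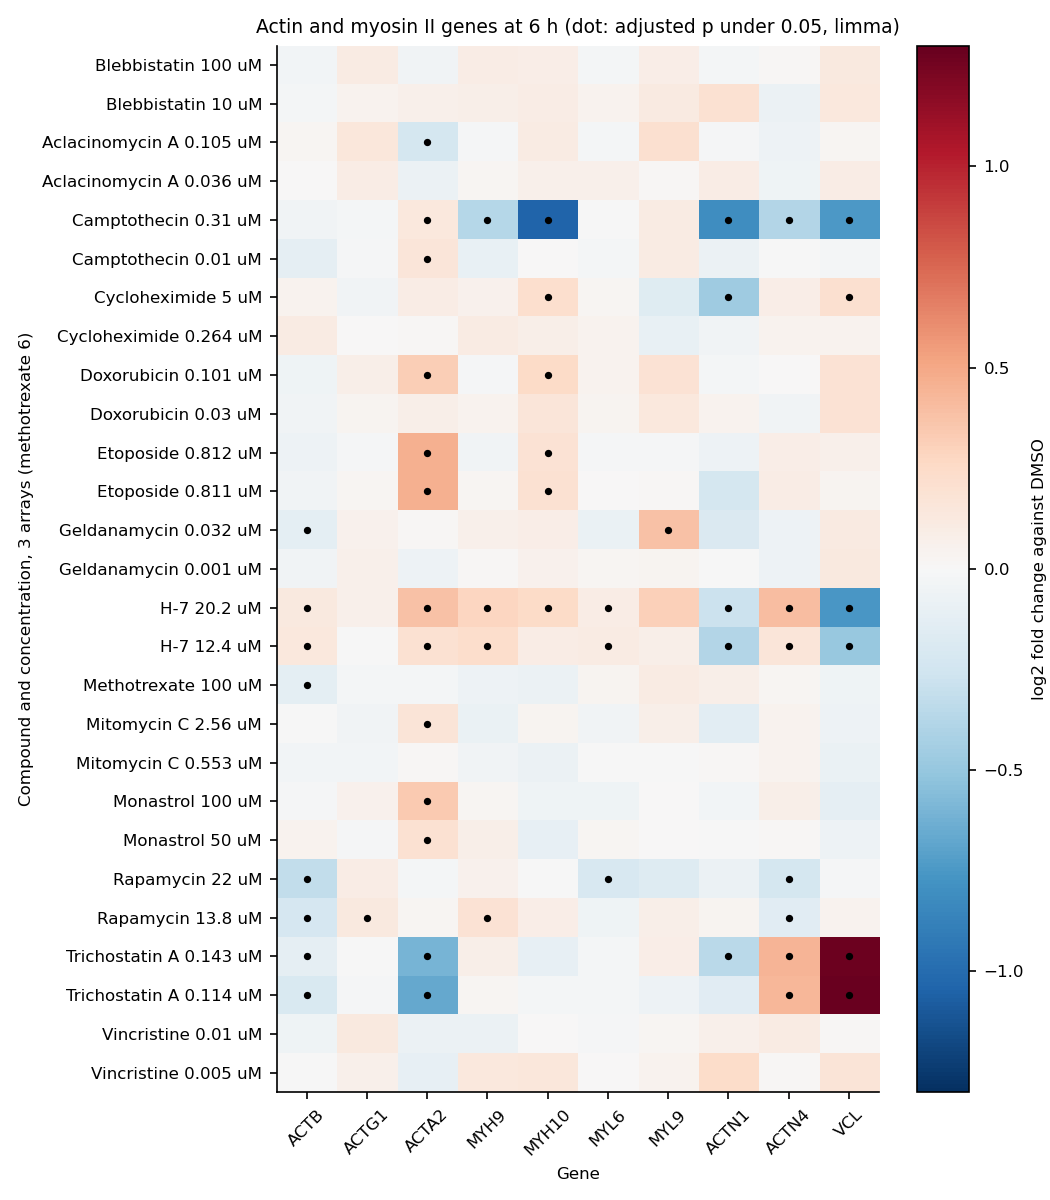
Log2 fold change against DMSO at 6 h (colour, log2 units) for the 10 genes (x axis) in each of the 27 compounds and concentrations (y axis). A dot marks an adjusted p under 0.05: blebbistatin has none, and VCL is 1.28 higher under both trichostatin A concentrations.

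Under trichostatin A, a histone deacetylase inhibitor, the genes split. At 6 h, 5 of the 10 were called at 0.143 uM and 4 at 0.114 uM, near the 44.7% and 44.3% of all genes. VCL had 11.94, 12.13 and 12.03 at 0.143 uM, 11.98, 11.97 and 12.16 at 0.114 uM, and 10.65 to 10.92 in DMSO. It rose by 1.28 ± 0.0684 at either concentration (adjusted p = 6.33e-30 and 6.6e-30), and no treated array came near a DMSO array. ACTN4, an alpha-actinin that crosslinks filaments, had 12.12, 12.06 and 12.02 at 0.143 uM, 12.11, 12.04 and 12.04 at 0.114 uM, and 11.57 to 11.68 in DMSO. It rose by 0.44 ± 0.0518 and 0.43 ± 0.0518.

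ACTA2 went the other way, with 10.02, 9.81 and 9.92 at 0.143 uM, 9.84, 9.79 and 9.92 at 0.114 uM, and 10.41 to 10.64 in DMSO. It fell by 0.60 on the log2 scale at 0.143 uM (SE 0.0487, adjusted p = 2.04e-19) and by 0.67 at 0.114 uM (adjusted p = 7.67e-22), with every treated array below every DMSO array. ACTB fell by 0.11 at 0.143 uM (adjusted p = 0.028), a call lost without replicate 2 (adjusted p = 0.311), and by 0.20 at 0.114 uM (adjusted p = 8.51e-05), and ACTN1 fell by 0.35 at 0.143 uM (adjusted p = 0.000142). The heavy chains MYH9 and MYH10 and the light chains were not called at 6 h. The 3 other probe sets of VCL had the same sign, and 1 of them was called.

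The rise of VCL was not seen at 24 h. At 12 h it still rose at 0.143 uM, with 12.31, 11.96 and 12.01 and a difference of 1.31 ± 0.342 (adjusted p = 0.00501, 10.5% of all genes called). This call did not hold in every fit with a replicate left out (adjusted p up to 0.1625). The difference of VCL at 0.114 uM, 0.95 ± 0.342, did not pass (adjusted p = 0.0762). Without low-signal arrays VCL rose at 12 h by 1.24 ± 0.125 at 0.143 uM and 0.89 ± 0.125 at 0.114 uM (31.3% and 29.7% of all genes called). At 24 h VCL had 10.51, 11.01 and 11.08 at 0.143 uM and 10.88, 10.86 and 10.99 at 0.114 uM, against 10.74 to 11.18 in DMSO, and was not called, with or without low-signal arrays. The difference between the 6 h and the 24 h effect at 0.143 uM was itself called, at -1.34 ± 0.331 (adjusted p = 0.00213, 9.81% of all genes called). ACTA2 at 12 h fell by 0.83 and 0.85 (adjusted p = 0.00138 and 0.00139, with 7.8% of all genes called at 0.114 uM). Its call at 0.143 uM did not hold in every fit with a replicate left out (adjusted p up to 0.1075). Without low-signal arrays ACTA2 differed by -0.92 and -0.67, both called. In the fit of all arrays at 24 h, MYH10 differed by -0.67 ± 0.271 at 0.143 uM and -0.28 ± 0.271 at 0.114 uM and was not called (adjusted p = 0.148 and 1.0, 5% and 0.488% of all genes called). Without low-signal arrays, 1 of them at 0.143 uM, MYH10 fell by 0.57 at 0.143 uM and by 0.30 at 0.114 uM (adjusted p = 2.36e-11 and 2.22e-05, 31.2% and 18.3% of all genes called), with 10.94, 11.26 and 11.29 at 0.143 uM, 11.49, 11.64 and 11.52 at 0.114 uM, and 11.71 to 11.92 in DMSO.

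**Figure D3:**
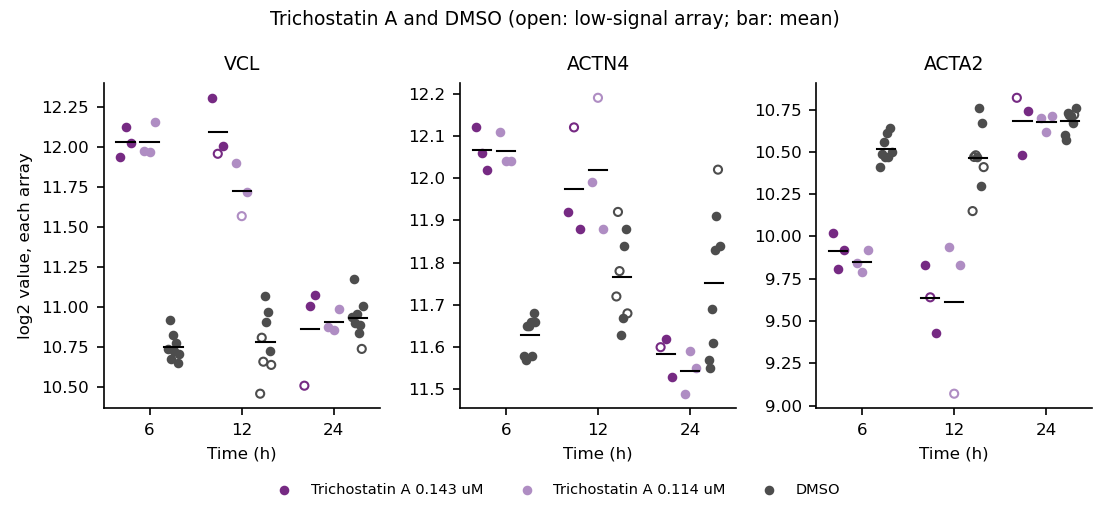
Log2 value of each array (y axis) for VCL, ACTN4 and ACTA2 under trichostatin A at 0.143 and 0.114 uM and in DMSO, by time in hours (x axis). Bars are means and open circles low-signal arrays; VCL lies above 11.5 in every treated array at 6 and 12 h and within or below the DMSO range at 24 h.

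The pathway lists under 0.143 uM trichostatin A at 6 h stand beside 44.7% of all genes called, 22.3% higher and 22.4% lower. All 8 immediate early genes rose, led by EGR3 (2.60 ± 0.0964) and EGR4 (2.64 ± 0.118). Of 22 SRF-linked cytoskeletal genes 10 rose, among them CNN2 (1.49 ± 0.058) and LIMA1 (0.58 ± 0.0425), and 2 fell, CALD1 (-1.05) and TPM1 (-0.48), which both bind along the filament. In the SRF axis MRTFA rose by 1.02 ± 0.101 and ELK1 by 0.25, while MRTFB and ELK4 fell by 0.42 and 0.44. Of 12 myosin II genes and regulators 5 rose and 2 fell, and of 16 actin assembly genes 3 rose and 8 fell.

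Under camptothecin, which traps topoisomerase I on DNA, the 5 longest of the 10 genes fell. At 0.31 uM and 6 h, 5 genes fell and 1 rose, where 46.9% of all genes were called and 19.9% were lower. MYH10 had 10.58, 10.62 and 10.50, against 11.51 to 11.77 in DMSO, and fell by 1.04 on the log2 scale (SE 0.0477, adjusted p = 1.48e-34). ACTN1 had 9.95, 9.89 and 9.82, against 10.51 to 10.84, and fell by 0.81 (SE 0.0821, adjusted p = 9.43e-15). VCL had 10.10, 10.00 and 9.94, against 10.65 to 10.92, and fell by 0.74 (SE 0.0684, adjusted p = 1.35e-16). ACTN4 (11.23, 11.28 and 11.22) and MYH9 (11.78, 11.85 and 11.79) fell by 0.39 and 0.37, and in all 5 genes the treated arrays lay below every DMSO array. The share of all genes that did so is not given here, so this separation may not be particular to them.

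These 5 genes have RefSeq spans of 156.514 kb (MYH10), 105.175 kb (ACTN1), 123.248 kb (VCL), 83.941 kb (ACTN4) and 106.688 kb (MYH9). ACTB (3.454 kb), ACTG1 (2.829 kb), MYL6 (3.221 kb) and MYL9 (9.929 kb) were not called, and ACTA2 (56.264 kb) rose by 0.13 ± 0.0487 (adjusted p = 0.0169), with 10.71, 10.62 and 10.63 overlapping the DMSO range. Among all genes with a span, 3.88% of 4850 under 10 kb fell, 17.9% of 10171 between 10 and 100 kb and 51.2% of 3168 over 100 kb. The 4 longest of the 10 genes were thus all lower, in a class where 51.2% of genes were. At 0.01 uM only ACTA2 was called, higher by 0.16 ± 0.0487 (adjusted p = 0.0476), where 3.65% of all genes were called. The higher concentration lay below the lower one for MYH10 (-1.05), ACTN1 (-0.73), VCL (-0.72), ACTN4 (-0.38) and MYH9 (-0.28) at 6 h, where 39.2% of all genes were called between them.

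The fall of MYH10 lasted. At 12 h it had 10.02, 9.64 and 10.16, against 11.46 to 11.64 in DMSO (-1.63 ± 0.351, adjusted p = 0.000515, 9.12% of all genes called), and at 24 h 9.75, 10.20 and 9.96, against 11.71 to 11.92 (-1.86 ± 0.271, adjusted p = 1.88e-07, 8.21% called). MYH9 also fell at 24 h, by 0.59 on the log2 scale, with 11.71, 11.78 and 11.75 against 12.24 to 12.38 (adjusted p = 0.028). This MYH9 call did not hold in every fit with a replicate left out (adjusted p up to 0.228). Without low-signal arrays, 1 of the 3 camptothecin arrays at each of these times, MYH10 differed by -1.51 at 12 h and -1.77 at 24 h, and MYH9 by -0.58 at 24 h, and these were called. Then 8 of the 10 genes fell at 12 h, all but MYL6 and MYL9, where 27.8% of all genes were called and 11.7% were lower. ACTA2 then fell by 0.49 at 12 h and 0.54 at 24 h (adjusted p = 3.87e-05 and 1.27e-11, 34% of all genes called at 24 h), opposite to its direction at 6 h, while the fit of all arrays gave -0.39 and -0.66 and did not call it (adjusted p = 0.253 and 0.285).

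**Figure D4:**
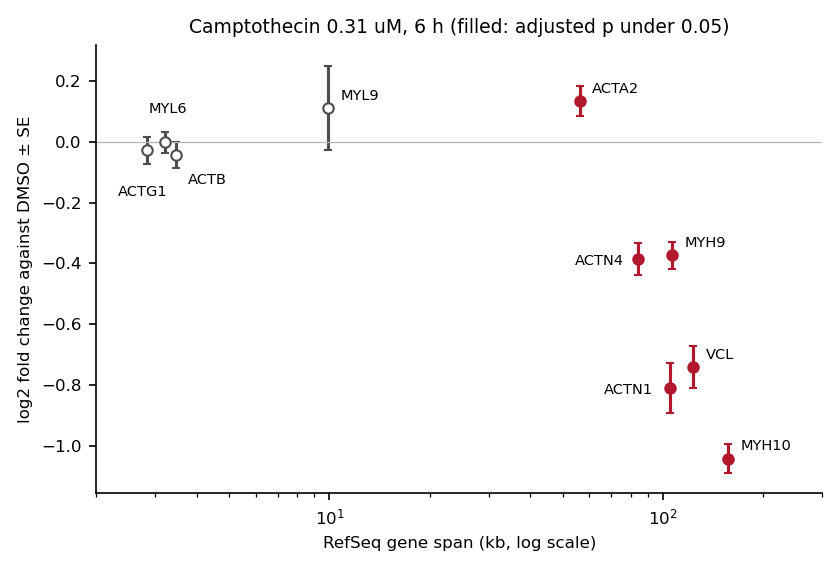
Log2 fold change against DMSO ± SE at 6 h under 0.31 uM camptothecin (y axis, log2 units) by RefSeq gene span in kb (x axis, log scale) for the 10 genes, each from 3 treated and 8 DMSO arrays. Filled points have an adjusted p under 0.05; the 5 genes over 80 kb lie between -0.37 and -1.04, and the 4 genes under 10 kb are not called.

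The pathway lists under 0.31 uM camptothecin at 6 h stand beside 46.9% of all genes called, 27% higher and 19.9% lower. All 8 immediate early genes rose (FOS 1.58 ± 0.0734, EGR4 2.23 ± 0.118). SRF rose by 0.75 ± 0.0693, while MRTFB and MRTFA fell by 1.54 and 0.69. Of the 12 myosin II genes and regulators 6 fell, including the kinase ROCK2 (-1.21) and the phosphatase subunit PPP1R12A (-1.52), and 1 rose. Of 22 cytoskeletal genes 9 rose (FHL2 1.86, CNN2 0.49) and 3 fell (PDLIM5 -2.16, TPM4 -0.37), and of 16 assembly genes 1 rose and 5 fell.

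ACTA2 responded to several compounds at 6 h. Etoposide, which traps topoisomerase II, gave the clearest rise, with 10.97, 10.98 and 11 at 0.812 uM and 10.99, 10.96 and 11 at 0.811 uM, against 10.41 to 10.64 in DMSO. The rise was 0.46 ± 0.0487 in each (adjusted p = 1.04e-12 and 9.06e-13, where 4.57% and 6.33% of all genes were called), and the nearly equal concentrations serve as a repeat. Monastrol, an inhibitor of the mitotic kinesin Eg5, gave 10.86, 10.84 and 10.88 at 100 uM and 10.78, 10.73 and 10.65 at 50 uM. These were rises of 0.34 ± 0.0487 and 0.20 ± 0.0487 (adjusted p = 2.26e-07 and 0.0139, where 7.59% and 1.47% of all genes were called), and every treated array lay above every DMSO array.

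Doxorubicin at 0.101 uM gave 10.78, 10.82 and 10.92, a rise of 0.32 ± 0.0487 (adjusted p = 3.57e-07, 7.14% of all genes called). H-7 gave 10.87, 10.97 and 10.87 at 20.2 uM (0.38 ± 0.0487, adjusted p = 7.12e-11) and 10.73, 10.71 and 10.72 at 12.4 uM (0.20 ± 0.0487, adjusted p = 0.000459), with all arrays above DMSO. Mitomycin C at 2.56 uM gave 10.77, 10.64 and 10.64, a rise of 0.16 (adjusted p = 0.0408, 2.97% of all genes called) whose arrays touched the DMSO range. When single replicates were left out, the ACTA2 calls of mitomycin C, 50 uM monastrol, both camptothecin concentrations and aclacinomycin A were lost, with adjusted p up to 0.41, 0.239, 0.123 (0.31 uM), 0.432 (0.01 uM) and 0.77. The ACTA2 probe set used has the suffix for probes shared by several transcripts, and its other 2 probe sets, with means of 4.26 and 3.72, were not called in any of these comparisons.

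**Figure D5:**
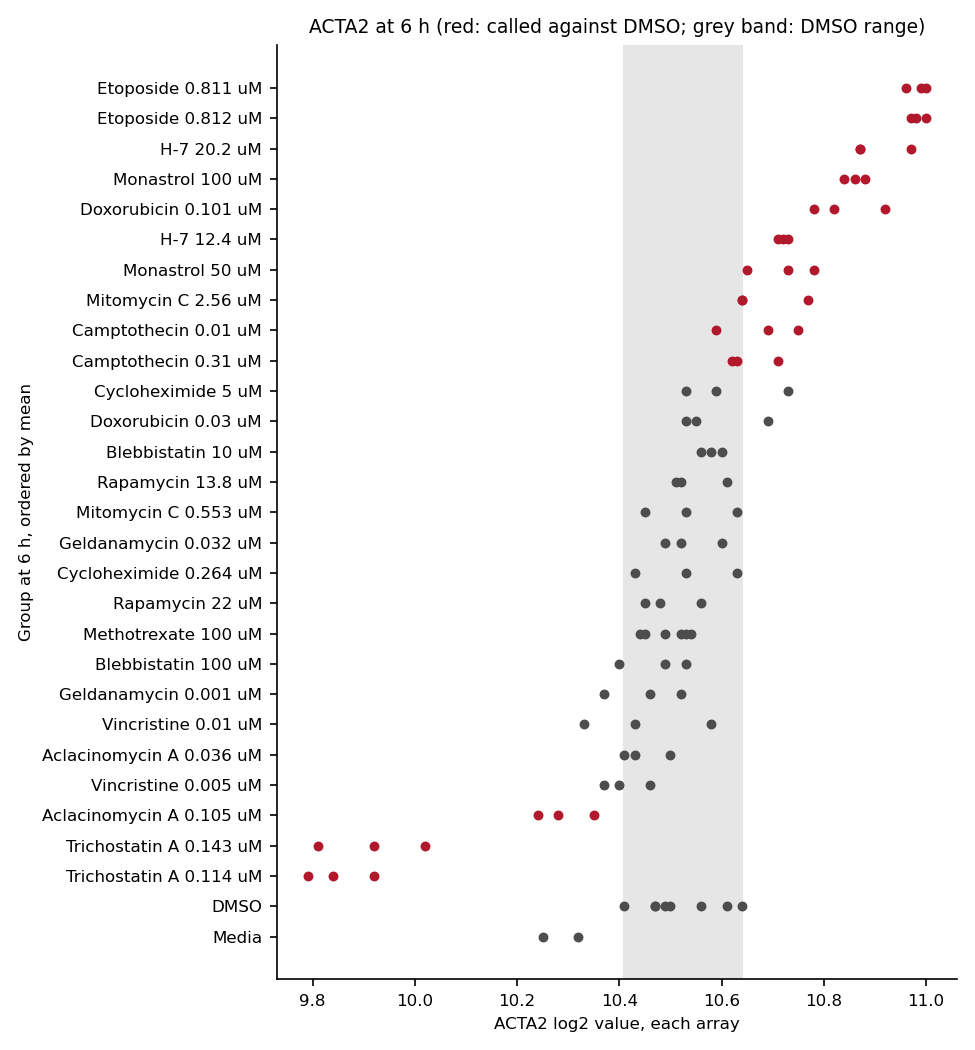
ACTA2 log2 value of each array at 6 h (x axis) by group (y axis, ordered by mean, with DMSO and Media last). Red groups were called against DMSO and the grey band is the DMSO range, 10.41 to 10.64; both etoposide groups lie at 10.96 to 11 and both trichostatin A groups at 9.79 to 10.02.

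The span of ACTA2 in RefSeq (chromosome 10, minus strand) overlaps by 27288 bases that of FAS, a death receptor gene on the opposite strand. FAS was chosen after its values were seen, so the counts given here are descriptive only. FAS rose in 8 of the 10 comparisons in which ACTA2 rose at 6 h, by 0.72 ± 0.104 and 0.60 ± 0.104 under 0.812 and 0.811 uM etoposide, for example. FAS also rose under 0.03 uM doxorubicin (0.53), 22 uM rapamycin (0.61) and 5 uM cycloheximide (0.34), where ACTA2 was not called. Under monastrol, FAS differed by -0.05 at 100 uM (adjusted p = 0.854) and -0.01 at 50 uM (adjusted p = 0.978). Under trichostatin A it fell by 2.31 at 0.143 uM and fell by 1.97 at 0.114 uM. Under 0.105 uM aclacinomycin A, where ACTA2 also fell, FAS differed by 0.01 (adjusted p = 0.976). Whether the shared span enters the ACTA2 values was not tested.

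Doxorubicin and aclacinomycin A are both anthracyclines, and their concentrations differed, so their values stand side by side only. At 6 h ACTA2 rose by 0.32 under 0.101 uM doxorubicin, and it had 10.24, 10.28 and 10.35 under 0.105 uM aclacinomycin A, a fall of 0.23 on the log2 scale (SE 0.0487, adjusted p = 0.00747, 0.762% of all genes called). MYH10 had 11.87, 11.92 and 11.78 under doxorubicin, a rise of 0.25 ± 0.0477 (adjusted p = 8.03e-05), and 11.76, 11.68 and 11.72 under aclacinomycin A, against 11.51 to 11.77 in DMSO. At 24 h ACTA2 had 11.69, 11.66 and 11.80 under 0.101 uM doxorubicin, 10.68, 10.67 and 10.79 under 0.105 uM aclacinomycin A, and 10.57 to 10.76 in DMSO.

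The 24 h rise under 0.101 uM doxorubicin, 1.03 ± 0.321, was the largest difference of ACTA2 from DMSO in the fits of all arrays. It was called (adjusted p = 0.0361, 6.07% of all genes called). This call did not hold in every fit with a replicate left out (adjusted p up to 0.204). Without low-signal arrays the rise was 1.04 ± 0.0525 (35.7% of all genes called). The fit of all arrays called ACTA2 in no other comparison with DMSO at 24 h, and under 20.2 uM H-7, with 1 low-signal array, its difference there was -0.24 ± 0.321. Without low-signal arrays ACTA2 also rose at 24 h under 0.03 uM doxorubicin (0.60 ± 0.0525), mitomycin C (0.74 ± 0.061 at 2.56 uM, 0.56 ± 0.0525 at 0.553 uM), 20.2 uM H-7 (0.70 ± 0.061), both etoposide concentrations (0.54 and 0.48) and 0.01 uM camptothecin (0.47 ± 0.0525). In these comparisons, in the same order, 23.5%, 29.8%, 20.4%, 20.8%, 25%, 20.8% and 21.1% of all genes were called. All arrays of 0.03 uM doxorubicin (11.31, 11.30 and 11.23), 0.553 uM mitomycin C (11.26, 11.23 and 11.23) and 0.01 uM camptothecin (11.19, 11.10 and 11.17) lay above the 10.57 to 10.76 of DMSO. Under 100 uM monastrol ACTA2 had 10.38, 10.24 and 10.36, the first of them on a low-signal array, and differed by -0.36 ± 0.321 in the fit of all arrays (adjusted p = 0.722). Without low-signal arrays, with 2 monastrol arrays left, it fell by 0.38 (adjusted p = 1.37e-06, 32.8% of all genes called).

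H-7, an inhibitor of serine and threonine kinases, moved 8 of the 10 genes at 20.2 uM and 7 at 12.4 uM at 6 h, where 50% and 33.5% of all genes were called. VCL had 10.06, 9.89 and 10.03 at 20.2 uM and 10.19, 10.32 and 10.28 at 12.4 uM, against 10.65 to 10.92 in DMSO. It fell by 0.76 and 0.49 (adjusted p = 4.51e-17 and 3.9e-09), and more at the higher concentration (difference -0.27 ± 0.0825, adjusted p = 0.00743, 30.8% of all genes called). Of the 3 other probe sets of VCL, only 1 had the same sign at each concentration, and it was called. ACTN4 had 12.12, 11.96 and 12.00 at 20.2 uM and rose by 0.40 ± 0.0518, and by 0.15 at 12.4 uM. MYH9 had 12.48, 12.42 and 12.49 at 20.2 uM and 12.38, 12.43 and 12.41 at 12.4 uM, above the 12.04 to 12.26 of DMSO, with rises of 0.28 ± 0.0447 and 0.23 ± 0.0447.

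The other alpha-actinin, ACTN1, fell by 0.28 at 20.2 uM and 0.38 at 12.4 uM (adjusted p = 0.00238 and 8.15e-05). Without replicate 2 the calls of ACTN1 at 20.2 uM (adjusted p = 0.056) and of ACTN4 at 12.4 uM (adjusted p up to 0.215) were lost, that of ACTN4 also without replicate 3. ACTB rose by 0.13 and MYL6 by 0.10 at each concentration. These 4 calls were lost when the arrays were quantile normalized again. Each was also lost when 1 replicate number of the compounds was left out. The mean of all MYL6 probe sets turned its direction at 20.2 uM. The pathway lists at 20.2 uM stand beside 50% of all genes called, 23% higher and 27% lower. Of the immediate early genes 3 rose and 4 fell at 20.2 uM, with EGR4 at -2.32, EGR1 at -0.95 and JUNB at 0.63. Of 22 cytoskeletal genes 6 rose (CNN2 0.80, CALD1 0.85) and 6 fell (TPM1 -1.05, PDLIM5 -0.70). SRF rose by 0.45 and MRTFA by 0.28, and ELK4 fell by 0.56. Of 12 myosin II genes and regulators 5 rose and 1 fell, and 10 of 16 assembly genes rose with none lower, CAPZB by 0.53.

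At 24 h the H-7 arrays were uneven. ACTB had 13.47, 13.19 and 10.76 at 20.2 uM and 12.98, 11.80 and 12.03 at 12.4 uM, against 13.18 to 13.55 in DMSO, and was called lower at both (-0.95 and -1.15, with 20.7% and 59.1% of all genes called). MYL6 (-0.96 and -0.74) and ACTN1 (-1.29 and -1.13) were lower at both as well. ACTG1 was lower at 20.2 uM (13.99, 14.13 and 13.06, -0.41) and ACTN4 higher at 12.4 uM (12.04, 12.82 and 12.61, 0.74). When replicates were left out, adjusted p reached 0.676 for ACTN1 and 0.9997 for ACTB, MYL6 and ACTG1 at 20.2 uM. At 12.4 uM it reached 0.184 for MYL6 and 0.058 for ACTN4, while ACTB and ACTN1 stayed called. Replicate 3 at 20.2 uM and all 3 at 12.4 uM were low-signal, with 3′ minus 5′ differences of the ACTB control probe sets of 5.64 and of 2.01 to 3.42, beside a median of 0.28 over the arrays of 24 h. Without these arrays 12.4 uM had no value, and at 20.2 uM ACTN1 fell by 0.77 and MYH10 rose by 0.50 (adjusted p = 8.37e-09 and 5.23e-09), while MYH10 differed by -0.10 ± 0.271 with all arrays and was not called. At 12 h, where none of the 20.2 uM arrays but 4 of 8 DMSO arrays were low-signal, ACTN1 had 9.32, 9.45 and 9.26 at 20.2 uM, against 10.46 to 10.76 in DMSO (-1.29 ± 0.348, adjusted p = 0.0198, 3.32% of all genes called), and -1.31 ± 0.116 without low-signal arrays (25.8% called). The call from all arrays was lost without replicate 1 or 3 (adjusted p up to 0.306).

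Rapamycin, which inhibits the kinase mTOR, lowered ACTB at 6 h. ACTB had 13.10, 13.07 and 13.11 at 22 uM and 13.13, 13.19 and 13.27 at 13.8 uM, all below the 13.35 to 13.45 of DMSO. It fell by 0.32 and 0.21 (adjusted p = 6.31e-09 and 0.000117, where 26.6% and 17.8% of all genes were called). ACTN4 fell by 0.23 and 0.15, and MYL6 fell by 0.20 (SE 0.0339) at 22 uM, with 12.55, 12.59 and 12.66 against 12.70 to 12.92 in DMSO. At 13.8 uM MYH9 rose by 0.19 ± 0.0447 and ACTG1 by 0.13 ± 0.0451. At 13.8 uM the call of MYH9 was lost without replicate 2 (adjusted p = 0.131) and that of ACTN4 without replicate 2 or 3 or 1 DMSO array (adjusted p up to 0.266). ACTG1 had 13.97, 13.94 and 14.04, touching the top of the DMSO range at 13.94. Its call was lost without compound replicate 1, 2 or 3, and without DMSO replicate 2, 5 or 7 (adjusted p up to 0.228).

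Cycloheximide, which blocks protein synthesis, gave at 5 uM and 6 h a fall of ACTN1 by 0.46 on the log2 scale (10.28, 10.16 and 10.27, against 10.51 to 10.84, adjusted p = 2.02e-06). MYH10 rose by 0.21 ± 0.0477 with 11.81, 11.81 and 11.85, and VCL by 0.21 ± 0.0684, where 33.4% of all genes were called, and the VCL call was lost without replicate 1 (adjusted p = 0.155). ACTN1 stayed below DMSO at 24 h, but not every fit with a replicate left out called it (adjusted p up to 0.069). Its cycloheximide arrays had 10.28, 10.12 and 10.20 against 10.79 to 11.18 (-0.84 ± 0.258, adjusted p = 0.0207, 13.5% of all genes called). The first and last of these arrays were low-signal, and without low-signal arrays the difference was -0.95 ± 0.133 from 1 cycloheximide array, assumed to vary like the other groups (34.8% called). MYH10 also rose under etoposide at 6 h, by 0.19 at 0.812 uM and 0.20 at 0.811 uM, and both calls were lost without replicate 2 or 3 (adjusted p up to 0.153 and 0.0665) and with the replicate number as a block. Geldanamycin, an HSP90 inhibitor, gave at 0.032 uM and 6 h the only call of MYL9, with 4.90, 5.41 and 4.98 against 4.24 to 4.94 (0.38 ± 0.139, adjusted p = 0.045, 16.5% of all genes called). ACTB was lower there and under methotrexate by 0.12 each (adjusted p = 0.041 and 0.047, 1.76% of all genes called under methotrexate), and these 3 calls were lost when single arrays were left out.

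The later times held 14 of 270 called pairs at 12 h (1 higher, 13 lower, 2.81% of all pairs called) and 16 at 24 h (2 higher, 14 lower, 5.79%). Of the 14, 9 came from 0.001 uM geldanamycin at 12 h, where 28% of all genes were called, and rest on its replicate 2. ACTB had 13.28, 5.50 and 13.24, and ACTG1 14.22, 7.74 and 14.23. Replicate 2 had an upper quartile of 6.91 and an ACTB 3′ minus 5′ difference of 2.73. Without low-signal arrays none of the 9 was called, and 0% of all genes were. Replicate 2 of 2.56 uM mitomycin C at 24 h stood apart in the same way, with ACTB at 10.89 beside 13.18 and 13.33 in its replicates. It carries the calls of ACTB, ACTN1, MYH9 and MYH10 there (25.8% of all genes called). Without low-signal arrays 41 of 230 pairs were called at 12 h (8.76% of all pairs) and 78 of 260 at 24 h (18.2% of all pairs).

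The vehicle itself went with differences at 6 h. Against the 2 Media arrays, the 8 DMSO arrays had 6 of the 10 genes called, where 25.5% of all genes were. MYH10 had 11.51 to 11.77 in DMSO and 11.93 and 12.20 in Media, a difference of -0.46 ± 0.0557 (adjusted p = 1.15e-10). ACTA2 had 10.41 to 10.64 in DMSO and 10.32 and 10.25 in Media, higher in DMSO by 0.23 ± 0.0569. ACTB (-0.15), ACTN1 (-0.26), ACTN4 (-0.18) and MYH9 (-0.20) were lower in DMSO. Of the 8 immediate early genes 6 were higher in DMSO (list median 0.53), 8 of 22 cytoskeletal genes were lower, and so were 1 of 5 in the SRF axis, 1 of 12 myosin II genes and regulators and 3 of 16 assembly genes. None of the 10 genes was called at 12 or 24 h, where 0.417% and 0.713% of all genes were. Without low-signal arrays 5 were called at 12 h and 4 at 24 h (14.4% and 20.2% of all genes).

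Between the concentrations of the 13 compounds given at more than 1, 13 of 130 pairs were called at 6 h (8.5% of all pairs), 10 at 12 h (2.49%) and 5 at 24 h (2.69%). Of the 10 at 12 h, 9 belong to geldanamycin with its low-signal array, and the other was MYH10 under camptothecin (-1.77 ± 0.423, 3.32% of all genes called). Camptothecin gave 5 of the 13 at 6 h and H-7 gave 4. Without low-signal arrays 16 of 100 pairs were called at 12 h (7.31% of all pairs) and 21 of 120 at 24 h (10.4%). Of 140 changes of the effect between 6 and 24 h, 3 were called (3.2% of all pairs), namely VCL under trichostatin A and ACTN1 and MYL6 under H-7 at 20.2 uM (-1.01 and -1.06, 12.7% of all genes called), the H-7 pair with the low-signal replicate 3 at 24 h.

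The genes whose 29 group means at 6 h ran most like those of VCL were ATP7A, FAM117A and NR3C2, with Pearson correlations of 0.948, 0.938 and 0.936. For ACTA2 they were TMEM68 (0.893), BTBD10 (0.853) and TRIM22 (0.838), and for MYH10 ASCC3 (0.914), CASK (0.909) and FER (0.894). These correlations describe means of separate arrays of 1 time, and carry no test. Among the 10 genes, ACTA2 and VCL ran in opposite directions over the 29 group means (r = -0.70). ACTB ran with MYL6 (r = 0.73) and MYH9 with MYH10 (r = 0.72). How far single groups carry these values was not tested.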

How the data were processed

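Total RNA was labelled as biotin cRNA and hybridised to HT HG-U219 arrays, per the labels' protocols. The deposited values are log2 intensities that the authors made with RMA, per the submitters' processing notes, which give no version. Of 49386 probe sets, 45259 had 1 gene symbol, 1327 had several and 2800 were not listed. The 93 array controls among these were left out when genes were read. Each of 18239 genes was read from its probe set of highest average.

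Each time was fitted over its 94 arrays with limma 3.58.1 (R 4.3.3), 1 mean per group and a trended prior. Changes of effect from 6 to 24 h came from a joint model of the 282 arrays. Benjamini-Hochberg adjustment ran over 18239 genes per comparison, with calls at 0.05. The fit was tested on simulated data. Tables and figures used Python 3.11.15, pandas 2.3.3, numpy 2.4.6 and matplotlib 3.10.9. The number of arrays limits the precision.

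The members and the lists (SRF axis, SRF-linked cytoskeletal and immediate early genes, other myosin II genes and regulators, actin assembly, cell type markers) were chosen with earlier results of these data known. All 10 members were named, with list genes called under blebbistatin at 6 h, or otherwise the 2 with the smallest adjusted p per direction for a compound described, and the 3 genes most like each of the 3 most variable members. FAS was outside this rule and chosen after its values were seen. List genes named only for their level in DMSO were also outside it. Alternatives were a replicate block, each replicate left out, repeated quantile normalization, and a fit of only the arrays compared. Others were averaging a gene's probe sets, dropping the dimmest 40% of genes, and dropping low-signal arrays (upper quartile below 8). Leaving out a replicate removed that number from all compounds at once, or a DMSO array, and never a Media array.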

Additional observations from a re-analysis of the deposited data

Results flagged for a closer look

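In 3 of 60 cases of 1 gene in 1 group (10 genes in the DMSO and methotrexate groups of each time), 1 array lay far from the others of its group, where chance gives about 1 in 20. ACTG1 was 13.90 in replicate 3 of methotrexate at 12 h, where the nearest other array had 14.16 and the farthest 14.22. MYL6 was 12.36 in replicate 8 of DMSO at 12 h, where the others had 12.48 to 12.58. ACTG1 was 14.33 in replicate 7 of DMSO at 24 h, where the others had 14.06 to 14.18.

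The difference from DMSO changed between 6 and 24 h, by a test of the change itself, in 3 of 140 cases. The change was -1.34 for VCL under 0.143 uM trichostatin A, and -1.01 for ACTN1 and -1.06 for MYL6 under 20.2 uM H-7, whose replicate 3 at 24 h was low-signal. The part of array quality in these changes was not tested.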

How the results depend on the processing

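Shares of all genes called under these alternatives are given only in the Results, and only for fits without low-signal arrays. The other counts do not show whether these 10 genes or the calls of all genes changed. At 6 h the count of 54 called pairs stayed within 1.5 times under each alternative, with 36 to 57 when single replicates were left out. No blebbistatin member was called at 6 h, except 4 at 10 uM with the mean of all probe sets, where ACTN1 was -0.18 and MYL6 -0.12. At 24 h, fitting only the arrays compared gave 2 calls at 100 uM blebbistatin, and leaving out low-signal arrays gave 5 at 100 uM and 2 at 10 uM, where ACTA2 became 0.25 and MYL6 0.16. With single replicates left out, blebbistatin had 0 to 1 calls at 10 uM and 12 h and 0 otherwise.

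The later counts moved most, and for most settings no share of all genes stands beside them. The 14 pairs at 12 h became 38 with only the arrays compared, 41 of 230 without low-signal arrays and 11 to 46 with replicates left out. The 16 pairs at 24 h became 50, 78 of 260 and 15 to 19 under the same settings, and 31 with quantile normalization again. Dose pairs numbered 8 to 13 at 6 h, 9 to 15 at 12 h and 4 to 14 at 24 h with replicates left out. The 10 at 12 h became 6 with the mean of all probe sets and 16 of 100 without low-signal arrays. The 5 at 24 h became 10 with only the arrays compared, 13 with quantile normalization again and 21 of 120 without low-signal arrays. DMSO against Media gave 5 to 6 calls at 6 h, 0 to 3 at 12 h and 0 to 1 at 24 h with compound or DMSO replicates left out. No Media array was left out, so dependence on either was not tested. The same comparison gave 2 at 12 h and 3 at 24 h with only the arrays compared, 5 and 4 without low-signal arrays, and 1 at 24 h with quantile normalization again. The 3 changes from 6 to 24 h became 12 with the mean of all probe sets, 23 with only the arrays compared, 7 with quantile normalization again, 32 without low-signal arrays and 2 to 14 with replicates left out. Leaving out replicate 2 gave the 46 pairs at 12 h and the 14 changes over time, and leaving out replicate 3 the 14 dose pairs at 24 h. Apart from the low-signal arrays themselves, the cause was not tested.

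Under 0.001 uM geldanamycin at 12 h, leaving out single replicates gave -3.21 to 0.033 for ACTG1, -2.29 to 0.11 for ACTN1, -2.42 to 0.11 for MYH10, -2.48 to 0.18 for MYH9, -2.43 to 0.10 for MYL6 and -2.14 to 0.19 for VCL, with the positive values without replicate 2. Without low-signal arrays these genes were at 0.065, 0.09, 0.078, 0.11, 0.075 and 0.05 in the same order. VCL was 0.063 there with the mean of all probe sets, and ACTA2 0.16 with quantile normalization again. Under 2.56 uM mitomycin C at 24 h, single replicates left out gave -1.35 to 0.24 for MYH10 and -1.07 to 0.058 for MYH9, and leaving out low-signal arrays 0.22 and 0.044. ACTN4 under 12.4 uM H-7 at 24 h was -0.053 with the mean of all probe sets.

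With the replicate number as a block, 43 pairs were called at 6 h, 12 at 12 h and 10 at 24 h, with 2 dose pairs at 24 h and 1 change over time. Correlations of same-numbered blebbistatin and DMSO arrays ran from -0.38 to 0.28. Those of replicate 2 were positive at every time and concentration, from 0.03 to 0.28. With so few arrays they cannot decide whether arrays of a number shared a culture or batch. Other compounds were not checked.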
